A study of Homo sapiens with 10 samples.

Results

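The genes described here are the C2H2 zinc finger genes that lie scattered over the human autosomes, away from the large families on chromosomes 7, 12 and 19. Members were taken by name and place: protein-coding genes listed in both count tables of the study, on an hg19 autosome other than chromosome 7, 12 or 19, whose symbol is built of ZNF, ZFP, ZSCAN, ZKSCAN, ZIM, ZIK, RBAK or HKR with a number and at most 1 letter. This gave 217 of 24050 genes listed in either table, and 217 of the 516 genes of this name pattern in both tables. The rule uses no fold change, but it needs a listing in both tables, which left out 2 of 232 annotated genes listed for HEK293T alone and 13 listed in neither table. The members sit on 17 chromosomes, and 16 of them are SCAN-named (ZSCAN or ZKSCAN). Another member lay within 200 kb of 101 members, counted as the gap between gene bodies, and no other member lay that close to the remaining 116. The 101 neighbours form 27 loci, of which 13 hold exactly 2 members and 10 hold 4 or more. The nearest members on either side of the 200 kb limit were 171926 and 202179 bp apart.

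C2H2 zinc finger proteins bind DNA through tandem fingers, each of which reads a few bases. Many carry a KRAB box, which calls on the corepressor TRIM28 and through it on SETDB1, the enzyme that writes H3K9me3, so that the bound DNA is silenced. Others carry a SCAN box, a helical domain through which SCAN proteins pair with each other. ZNF274 has both kinds of domain and is known for binding the 3′ ends of zinc finger genes, where H3K9me3 is laid down. Most KRAB zinc finger genes arose by tandem duplication and stand in clusters on chromosome 19, and the dispersed genes include both older, single factors with roles in development and small local families.

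RNA-seq was performed on polyadenylated RNA (stranded libraries) of 10 samples in 4 groups. WT HEK293T cells, a line from human embryonic kidney, gave 3 libraries (S15, S16 and S17), and ZNF274 KO HEK293T cells gave 3 (S18, S19 and S20). WT neural progenitor cells (NPC), derived from H1 embryonic stem cells through embryoid bodies, gave 2 libraries (S3 and S5), and NPC derived from ZNF274 KO stem cells gave 2 (S1 and S2). In both cell types ZNF274 was deleted with CRISPR-Cas9 and a pair of guides on either side of the gene, without further treatment, and KO cells were expanded from single cells or colonies. The study refers to parental lines in the plural for its NPC data, but the labels do not name the clone, line or culture behind a library, so p-values measure the spread between these libraries, and a clone's own features cannot be told apart from the genotype if libraries of a group share 1 clone.

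Libraries held 21421013 to 32285876 counts on genes in HEK293T and 18621266 to 23035490 in NPC. ZNF274 was at 14.6 to 16.7 CPM (counts scaled to a fixed library total, with TMM factors) in WT HEK293T and at 23.2 to 25.4 CPM in WT NPC, and had 0 counts in each KO library. Of the 10 genes fixed as neural progenitor markers, 9 were tested in NPC and 7 were lower in KO (SOX1, SOX2, SOX3, PAX6, FABP7, LHX2 and MSI1). Their summed level was 2860 to 3895 CPM in WT and 3167 to 3240 CPM in KO, most of it NES. Of 9 mesenchymal markers 5 were higher in KO NPC (COL1A1, COL3A1, TWIST1, SNAI2 and POSTN), and their summed level was 1223 to 2082 CPM in WT and 5089 to 5894 CPM in KO. Of 5 neuron markers 2 were lower in KO NPC, MAP2 (log2 fold change -2.82, SE 0.15, adjusted p = 6.08e-05) and DCX (-3.68, SE 0.46, adjusted p = 0.00159). The summed level of the 5 was 1038 to 1133 CPM in WT and 153.4 to 199.3 CPM in KO. Most of it was MAP2, at 992 and 1089 CPM in WT and 166 and 129 CPM in KO. STMN2 (log2 fold change 0.32, adjusted p = 0.399), TUBB3 (-0.06, adjusted p = 0.928) and NEUROD1 (-0.93, adjusted p = 0.703) had overlapping groups. These shifts of marker genes accompany every NPC comparison below, and their part in it was not tested. In bulk RNA, fewer cells of a type and less RNA per cell cannot be told apart. In HEK293T, SOX1, FABP7, PRRX1 and COL1A2 were at or under the floor of 3 counts (0.0921 to 0.131 CPM by library), but other genes of these lists, such as PAX6, MSI1, NES, COL1A1 and SNAI2, were expressed, and the WT libraries summed to 96.5 to 107.2 CPM over the neural progenitor list and to 42.7 to 89.8 CPM over the mesenchymal list. PAX2 and NEFM, fixed as marks of this line, summed to at most 1.01 CPM.

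Domains were read from the translated coding transcripts. A KRAB A box was found in 83 members, a SCAN box in 34 and both in 14, at an E-value of at most 1e-05. The SCAN box was found in 15 of the 16 SCAN-named members (the exception was ZSCAN26, translated over 344 residues from 1436 coding bases) and in 19 members with other names, such as ZNF232, ZNF24 and ZNF165. Members had a median of 9 C2H2 fingers and at most 36, and 19 members had fewer than 2 by this reading. The KRAB box was more frequent among members with a neighbour (54 of 101) than among those without (29 of 116), by count. No protein was read for 2 members (ZNF280A and ZNF518A), and only 9 residues for ZNF718, which is counted here as without a KRAB box and among the 19.

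The promoters of the 4 members with the largest changes that passed the test in HEK293T (ZNF501, ZNF502, ZNF883 and ZNF239) and of ZNF300, the member with the largest gain in NPC among those detected in WT, are printed here, because the results turn on these genes. ZNF501 and ZNF502 are neighbours on chromosome 3 that rose together. Each line gives hg19 reference sequence upstream of the start site of the canonical transcript, 5′ to 3′ on the strand of the gene. It ends before the first annotated exon base. Bases next to the canonical start were therefore left off, 2 (ZNF239) to 39 (ZNF501), which leaves 211 to 248 bases. For ZNF883 38 bases were left off, and its line stops short of the gene, where the other lines abut theirs. Capitals mark any GGGCGG (the GC box of SP and KLF factors), CCGGAA (ETS factors), ATGGCG (YY1), TGACGT (CRE) or GCATGCG (NRF1) on either strand.
ZNF501, chr3:44770877-44771087, plus strand: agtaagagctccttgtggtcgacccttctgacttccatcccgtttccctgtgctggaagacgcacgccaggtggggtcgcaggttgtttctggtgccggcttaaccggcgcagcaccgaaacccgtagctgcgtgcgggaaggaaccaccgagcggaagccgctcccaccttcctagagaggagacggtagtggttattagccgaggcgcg
ZNF502, chr3:44753902-44754134, plus strand: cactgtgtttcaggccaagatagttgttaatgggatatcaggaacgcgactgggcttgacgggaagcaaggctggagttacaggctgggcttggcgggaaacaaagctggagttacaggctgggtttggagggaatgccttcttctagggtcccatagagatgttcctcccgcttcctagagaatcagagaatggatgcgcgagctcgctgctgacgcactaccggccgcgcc
ZNF239, chr10:44070067-44070314, minus strand: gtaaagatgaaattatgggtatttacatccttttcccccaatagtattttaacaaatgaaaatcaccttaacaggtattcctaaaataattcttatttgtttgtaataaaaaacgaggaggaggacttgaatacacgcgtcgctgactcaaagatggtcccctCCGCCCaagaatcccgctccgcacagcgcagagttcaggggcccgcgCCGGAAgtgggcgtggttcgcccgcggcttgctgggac
ZNF883, chr9:115774511-115774722, minus strand: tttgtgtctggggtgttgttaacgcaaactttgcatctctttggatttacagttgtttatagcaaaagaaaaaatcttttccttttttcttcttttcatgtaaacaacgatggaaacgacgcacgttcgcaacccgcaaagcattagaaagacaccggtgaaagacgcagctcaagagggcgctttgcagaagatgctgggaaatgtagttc
ZNF300, chr5:150284546-150284792, minus strand: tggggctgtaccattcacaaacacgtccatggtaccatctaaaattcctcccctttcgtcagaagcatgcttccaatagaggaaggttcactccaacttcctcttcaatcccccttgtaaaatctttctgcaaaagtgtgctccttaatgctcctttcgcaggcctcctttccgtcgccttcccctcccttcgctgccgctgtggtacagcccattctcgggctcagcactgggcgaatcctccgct
Only the ZNF239 stretch holds any of these motifs, 1 GC box and 1 ETS motif, and no match says only that these letters are not in the stretch. In full windows of 250 bases upstream, the ETS motif was in 87 of 217 members (40.1%), in 53 of 101 members with a neighbour (52.5%) and in 34 of 116 without (29.3%), against 21.6% of 16353 listed protein-coding genes. The GC box was in 60.8% of members and 66.9% of all these genes. YY1 (11.1% and 8.16%), CRE (9.22% and 9.43%) and NRF1 (5.07% and 5.05%) motifs followed, as shares of members and of all genes. The median number of CpG was 19 in members and 20 in all genes. Of the 7 members that were higher in KO HEK293T, 2 had the ETS motif and 2 the GC box. These matches are descriptions of the sequence and not of bound factors.

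The first comparison asks how these genes respond to the loss of ZNF274 in HEK293T cells. Of 217 members, 204 had enough counts to be tested, 7 were higher in KO and 0 were lower (edgeR's quasi-likelihood test over 19018 genes, Benjamini-Hochberg adjusted p below 0.05 and fold above 2). That is 3.43% of the tested members, where 0.478% of all genes were called higher and 0.0105% lower. The 7 genes were ZNF501, ZNF502, ZNF883, ZNF239, ZNF232, ZFP90 and ZNF354A. At an unadjusted p below 0.05, 30 members were higher and 6 lower (14.7% and 2.94% of members, 4.43% and 2.69% of all genes), and DESeq2 and voom called 10 and 7 higher and 0 lower. In 40 members (19.6%) all 3 KO libraries lay above all WT libraries, against 7.16% of all genes, and in 13 (6.37%) they lay below, against 5.27%. The median log2 fold change was 0.07 over members and 0.01 over all genes, and 132 of 204 members were above 0. Most members thus had changes near 0, with a longer tail on the higher side.

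**Figure D1:**
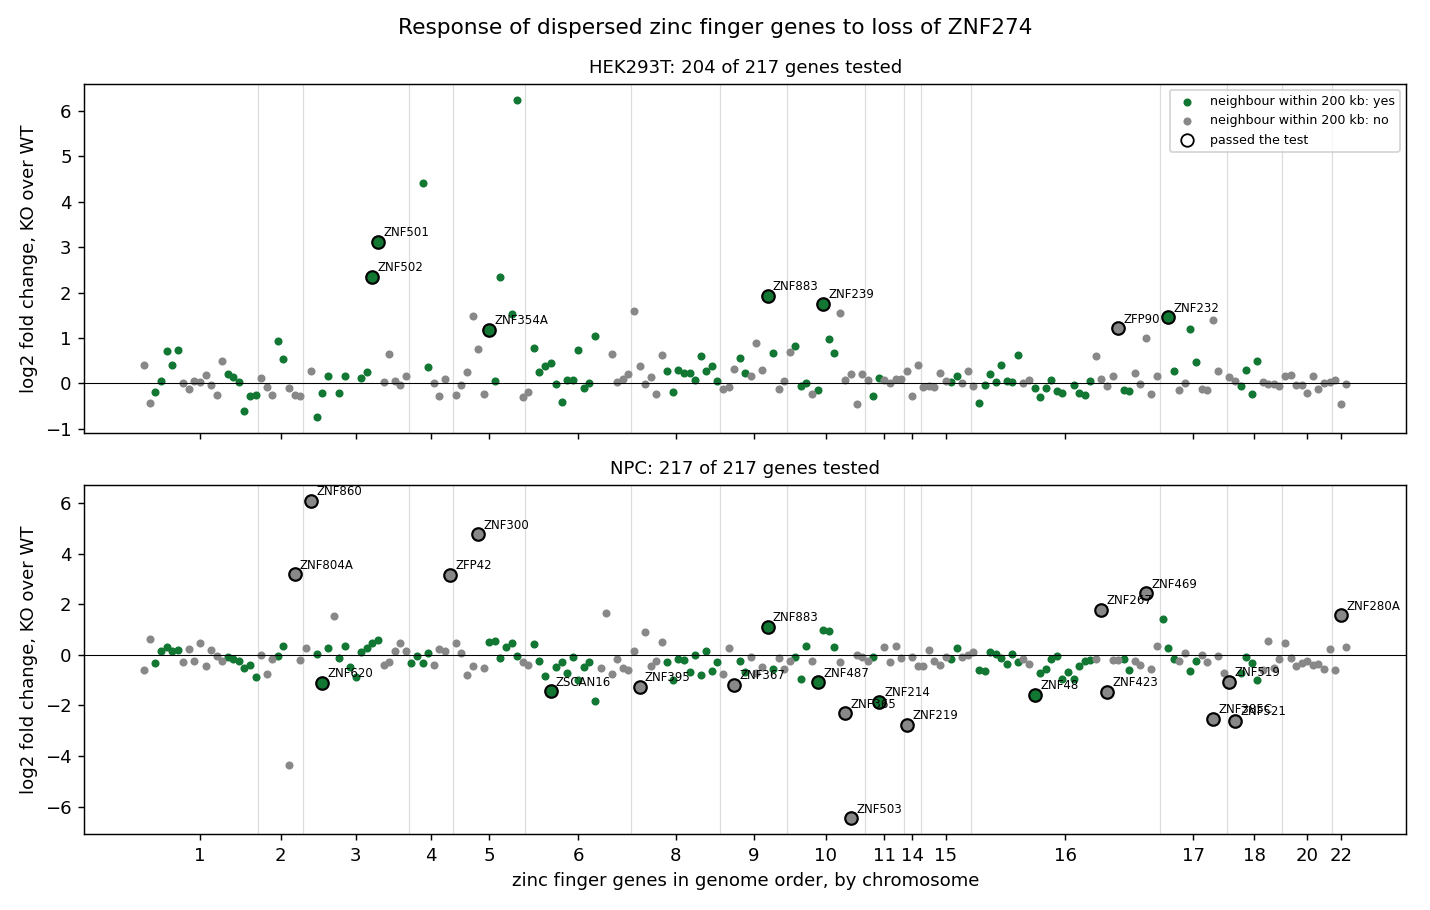
Log2 fold change (KO over WT) of each dispersed zinc finger gene in genome order, grouped by chromosome, in HEK293T (above) and NPC (below). Green points have another member within 200 kb and grey points have none, and ringed, named points passed the test. In HEK293T 7 genes are ringed, all above 0, and in NPC 8 are ringed above and 14 below 0. The unringed points near 6.25 (ZNF354C) and 4.42 (ZNF141) have 0 counts in every WT HEK293T library, and so does ZNF860 in WT NPC, so their fitted heights depend on the prior count.

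The largest increases among called members were those of a pair of neighbours on chromosome 3, ZNF501 (chr3:44771088-44778575, 9 fingers) and ZNF502 (chr3:44754135-44765323, 14 fingers), which lie 5765 bp apart on the same strand. Neither had a KRAB or SCAN box by the search used. ZNF501 was at 1.24, 2.75 and 1.999 CPM in the WT libraries S15, S16 and S17 and at 12.4, 17.2 and 22.4 CPM in the KO libraries S18, S19 and S20. Its KO libraries all lay far above its WT libraries, and the log2 fold change was 3.12 (SE 0.33, adjusted p = 0.0009, an 8.69-fold increase). ZNF502 was at 2.70, 2.06 and 3.12 CPM in WT and at 11.7, 14.7 and 13.8 CPM in KO. The groups did not overlap either, with a log2 fold change of 2.35 (SE 0.24, adjusted p = 0.000744). Both genes stand at the end of a locus of 8 members (chr3:44473197-44778575), where the other 4 tested genes stayed between -0.22 (ZNF445, a KRAB protein that guards imprinted loci) and 0.25 (ZNF35), and ZKSCAN7 and ZNF660 had at most 1 count in any HEK293T library. ZNF197, ZNF35 and ZNF852 had overlapping groups there, so the increase in this locus was seen in 2 of 6 tested members.

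ZNF239 (chr10:44051792-44070066, also known as MOK2, 9 fingers) had the smallest p of all members in HEK293T. It was at 8.81, 10.2 and 8.20 CPM in WT and at 27.9, 32.5 and 30.9 CPM in KO, a log2 fold change of 1.75 (SE 0.17, adjusted p = 0.000628). The KO libraries were close to each other and lay well above the WT libraries. Its locus holds 4 members (chr10:43932289-44144329), and 3 of them shifted the same way without overlap between groups. ZNF485 had a log2 fold change of 0.97 (SE 0.23, adjusted p = 0.161) and ZNF32 of 0.68 (SE 0.15, adjusted p = 0.118), and neither passed the test. ZNF487, at the other end of the locus, had overlapping groups (log2 fold change -0.15).

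ZNF883 (chr9:115750409-115774472, 13 fingers) was at 3.14, 3.51 and 1.63 CPM in WT and at 7.77, 12.7 and 11.02 CPM in KO HEK293T. Its log2 fold change was 1.93 (SE 0.32, adjusted p = 0.0223), and the groups did not overlap. Its only neighbour, the KRAB gene ZFP37, was at 4.51 to 6.81 CPM in WT and at 8.97 to 9.87 CPM in KO, a log2 fold change of 0.66 that did not pass (SE 0.23, adjusted p = 0.537).

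ZNF232 (chr17:5008564-5026457) codes for a SCAN box protein with 5 fingers. It was at 13.3, 11.8 and 14.6 CPM in WT and at 37.4, 35.8 and 36.1 CPM in KO, a log2 fold change of 1.46 (SE 0.16, adjusted p = 0.00113). The spread within each group was small beside the difference. It overlaps USP6 and an antisense gene on the opposite strand, and whether the counting used strand is not given in the sources used here. Of its neighbours, ZFP3 had 0 counts in all HEK293T libraries and ZNF594 had overlapping groups (log2 fold change 0.27).

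ZNF354A (chr5:178138513-178157660), a KRAB protein first described as Kid-1 in kidney, was at 18.5, 25.9 and 22.8 CPM in WT and at 38.1, 56.3 and 57.7 CPM in KO, a log2 fold change of 1.18 (SE 0.20, adjusted p = 0.0258). Its locus of 6 members (chr5:178138513-178510978) had 5 tested genes, all above 0, with a fitted median of 1.54. Among these, ZNF354C had reads in KO alone and was tested through them, so it could only be above 0. ZFP2 was near the floor in WT, and the median rests in part on both genes. ZNF879 was at 2.34 to 3.73 CPM in WT and at 6.38 to 12.1 CPM in KO, without overlap, and missed the threshold (log2 fold change 1.54, SE 0.30, adjusted p = 0.0615). ZNF354C had 0 counts in each WT library and 7, 17 and 4 counts in S18, S19 and S20, so KO was at least 3.20-fold higher against a floor of 3 counts per library, without passing (adjusted p = 0.156). ZFP2 was at 0.0339 to 0.138 CPM in WT and at 0.218 to 0.785 CPM in KO (adjusted p = 0.438), and ZNF354B, next to ZNF354A, had overlapping groups (log2 fold change 0.04).

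ZFP90 (chr16:68563993-68609975, a KRAB protein with 13 fingers) was the only called member without a neighbour, its nearest member being 2871525 bp away. It was at 13.5, 8.64 and 11.99 CPM in WT and at 25.6, 26.8 and 26.9 CPM in KO, a log2 fold change of 1.22 (SE 0.20, adjusted p = 0.0177). The KO libraries were nearly equal and lay above all WT libraries.

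**Figure D2:**
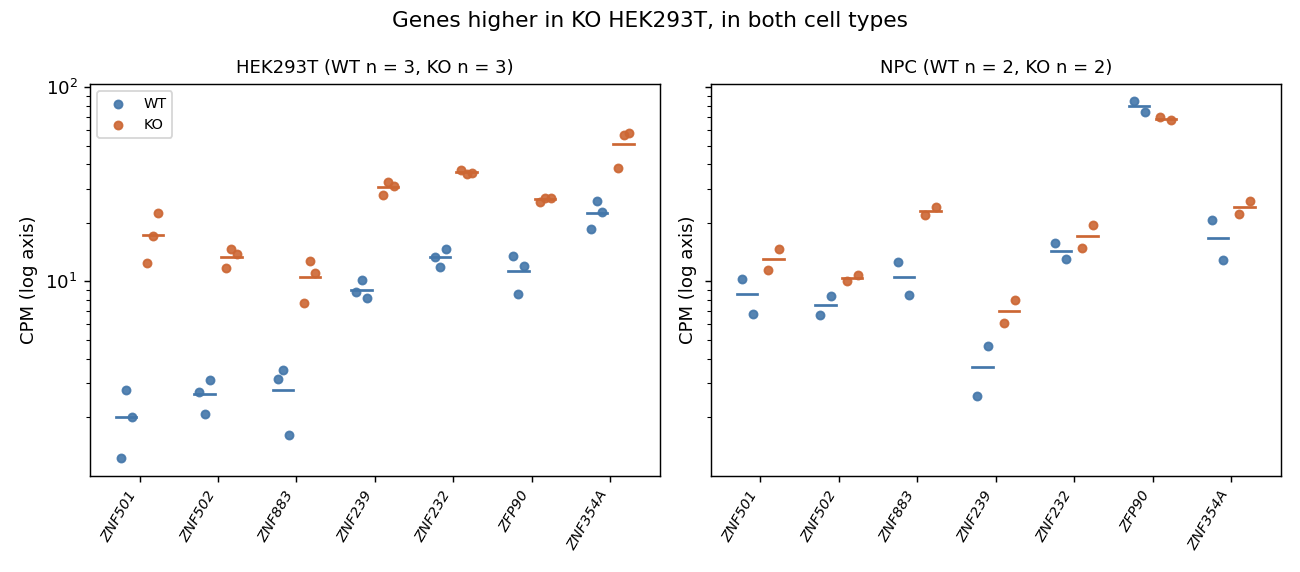
Normalized counts (CPM, log axis) in each library of the 7 members higher in KO HEK293T, in HEK293T (left, 3 WT and 3 KO libraries) and NPC (right, 2 and 2), with horizontal bars for group means. WT is blue and KO is orange. In HEK293T the groups are apart for every gene, and in NPC the points of ZNF232 overlap and those of ZFP90 are lower in KO.

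When each library was left out in turn, ZNF501, ZNF502, ZNF239 and ZNF232 passed in all 6 fits, under all other settings tried and at an adjusted p below 0.01. ZFP90 passed in 2 of the 6 fits, and ZNF354A and ZNF883 in 1 of 6. ZFP90 was lost without S16, S17, S19 or S20, and the other 2 without any library but S18. The log2 fold changes stayed at 1.05 to 1.36 (ZFP90), 1.06 to 1.35 (ZNF354A) and 1.66 to 2.14 (ZNF883) over all settings and left-out libraries, so the calls were lost without a change of direction or a large change in size.

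The second comparison splits the members by their neighbours. Of 94 tested members with another member within 200 kb, 6 were called higher in HEK293T (6.38%), and of 110 without, 1 was (0.91%). The median log2 fold changes were 0.16 and 0.04, and 28 members with a neighbour (29.8%) against 12 without (10.9%) had all KO libraries above all WT libraries. The direction of this contrast held with 100 kb (0.21 and 0.04), 500 kb (0.15 and 0.04) and start sites in place of gene bodies (0.16 and 0.04). Members with a neighbour had lower levels, a median of 8.53 CPM in WT against 16.9 CPM, so the split was repeated within levels, a choice made after the values were seen. Among members at 1 to 10 CPM in WT, the medians were 0.38 for 43 genes with a neighbour and 0.11 for 27 without. Among members at 10 CPM or more, they were 0.03 for 45 genes and 0.02 for 72. All KO libraries lay above all WT libraries for 39.5% with a neighbour and 22.2% without at 1 to 10 CPM. At 10 CPM or more, they did so for 17.8% and 6.94%, against 7.16% of all genes. All KO libraries lay below all WT libraries for 2.33% and 0% at 1 to 10 CPM. At 10 CPM or more, they lay below for 13.3% and 8.33%, against 5.27% of all genes. The medians thus differed at 1 to 10 CPM and were nearly equal at 10 CPM or more. At that higher level, groups stood apart more often with a neighbour in both directions, not only upward. No test of the split was made.

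Loci differed among themselves. Every tested member was above 0 in the 6-gene locus of chromosome 8 (chr8:145946292-146176274), where the median was 0.25, and in the 3 genes of chromosome 1 around ZFP69 (chr1:40915774-41013839), with a median of 0.71 and no call. In contrast, 7 of 8 tested members of the 9-gene locus on chromosome 16 (chr16:30389427-30798526) were below 0, with a range of -0.31 to 0.07. Chromosome 16, with 34 members the richest, had a median of 0.00 and 1 call (ZFP90). The 6 called neighbours lay in 5 loci, on chromosomes 3, 5, 9, 10 and 17.

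By protein domain, 2 of 76 tested members with a KRAB A box were called higher in HEK293T and 5 of 126 without, and the medians were 0.16 and 0.05. The 7 called genes had 5 to 14 fingers with a median of 13. None of the 15 tested SCAN-named members was called, and their median was 0.05. ZSCAN9 and ZSCAN31 were the SCAN-named members with an unadjusted p below 0.05, in opposite directions (log2 fold changes -0.41 and 0.74, adjusted p = 0.693 and 0.639). The members with the most reads in HEK293T did not pass the test. ZNF24, a SCAN protein, was at 290.4 ± 36.0 CPM in WT and 245.5 ± 85.7 CPM in KO (SD, n = 3 each), and ZNF703, a corepressor of the NET family, at 244.0 ± 22.3 and 240.9 ± 65.2 CPM. ZNF207, a spindle protein also known as BuGZ, had a log2 fold change of -0.13 (adjusted p = 0.873). Per kb of exon, the WT levels were 46.4 CPM for ZNF24 and 73.6 CPM for ZNF703.

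The third comparison makes the same contrast in NPC, where all 217 members were tested over 20577 genes. Here 8 members were higher in KO (3.69%) and 14 lower (6.45%), where 8.45% of all genes were called higher and 8.36% lower. The share called higher was under that of all genes, and the share called lower was near it. The median log2 fold change was -0.22 over members and -0.02 over all genes, and 66 of 217 members (30.4%) were above 0 against 48.8% of all genes. The members with the highest mean CPM over the 4 libraries, ZNF207, ZNF106 and ZNF638, had log2 fold changes of -0.01, 0.20 and -0.15 (adjusted p = 0.953, 0.275 and 0.311). At an unadjusted p below 0.05, 17 members were higher and 56 lower (7.83% and 25.8% of members, 20.6% and 19.7% of all genes). In 101 members (46.5%) both KO libraries lay below both WT libraries, against 33.8% of all genes, and in 43 (19.8%) they lay above, against 33.3%. The members' summed level was 5193 and 5441 CPM in the WT libraries and 4479 and 4458 CPM in the KO libraries, a lower sum in both KO libraries. In HEK293T the sums overlapped, at 4912 to 5142 CPM in WT and 5039 to 5365 CPM in KO.

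The largest decrease was that of ZNF503 (chr10:77157588-77161522), a corepressor of the NET family with roles in forebrain and eye development. It was at 57.9 and 42.8 CPM in WT and at 0.494 and 0.631 CPM in KO, a log2 fold change of -6.46 (SE 0.27, adjusted p = 2.83e-05). Its level nearly vanished in both KO libraries, while in HEK293T the groups overlapped at 102.3 to 155.8 CPM in WT and 84.8 to 246.3 CPM in KO. ZNF521 and ZNF423 are related factors with long finger arrays (27 fingers each by the pattern used) that act in neural development. ZNF521 (chr18:22641888-22932154) was at 259.3 and 191.6 CPM in WT and at 39.8 and 34.3 CPM in KO, a log2 fold change of -2.61 (SE 0.17, adjusted p = 0.000142). ZNF423 (chr16:49521435-49891830) was at 105.6 and 151.8 CPM in WT and at 48.6 and 45.0 CPM in KO, a log2 fold change of -1.46 (SE 0.18, adjusted p = 0.00146). Both KO libraries of each gene lay far below the WT libraries, and both genes were at under 8 CPM in HEK293T.

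ZNF219, a partner of SOX9 in cartilage, was at 45.9 and 57.0 CPM in WT NPC and at 4.396 and 10.7 CPM in KO (log2 fold change -2.76, SE 0.38, adjusted p = 0.00215). ZNF385C was at 6.06 and 6.398 CPM in WT and at 1.04 and 1.13 CPM in KO (log2 fold change -2.52, SE 0.32, adjusted p = 0.00165). Its relative ZNF385B was at 0.237 and 2.92 CPM in WT and at 0 and 0.135 CPM in KO. By the WT mean it was at least 11.1-fold lower against the floor of 3 counts per library, without passing (adjusted p = 0.0624). Its WT libraries differed widely, and this bound rests on S5 with 57 counts, as S3 had 5 counts, near the floor. ZNF365, a centrosomal protein, was at 1.89 and 4.86 CPM in WT and at 0.642 and 0.721 CPM in KO (log2 fold change -2.29, SE 0.56, adjusted p = 0.0214). ZNF48 and ZNF395 fell by 1.58 and 1.25 on the log2 scale (adjusted p = 0.00321 and 0.0125). The remaining lower members were ZNF214 (-1.84), ZSCAN16 (-1.43), ZNF367 (-1.18), ZNF620 (-1.09), ZNF487 (-1.08) and ZNF519 (-1.05), with adjusted p of 0.00315 to 0.0456. Of the 14, 9 had no neighbour, 3 had a KRAB A box and 4 had fewer than 2 C2H2 fingers. The 9 are 7.76% of members without a neighbour, where 8.36% of all genes were called lower.

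Among the members that rose in KO NPC, ZNF300 (chr5:150273954-150284545), a KRAB protein with 13 fingers, was at 1.56 and 0.409 CPM in WT and at 26.7 and 28.6 CPM in KO, a log2 fold change of 4.79 (SE 0.47, adjusted p = 0.000559). Its KO libraries were alike and lay far above both WT libraries. ZNF804A, known from association studies of schizophrenia, was at 0.568 and 0.205 CPM in WT and at 3.36 and 3.83 CPM in KO (log2 fold change 3.18, SE 0.53, adjusted p = 0.00477). ZFP42, the pluripotency marker REX1, was at 1.09 and 0.102 CPM in WT and at 5.98 and 5.04 CPM in KO (log2 fold change 3.17, SE 0.74, adjusted p = 0.0182). The call was lost without S1 or without S2 (adjusted p up to 0.0901), and the log2 fold change of ZFP42 was 5.67 without S3 and 2.32 without S5. LIN28A, another gene of the 6 fixed as pluripotency markers, fell in the same libraries (log2 fold change -5.62, SE 0.27, adjusted p = 4.27e-05). ZNF469, known from a disease of corneal collagen, was at 2.51 and 5.07 CPM in WT and at 20.8 and 19.95 CPM in KO (log2 fold change 2.43, SE 0.33, adjusted p = 0.00215). The collagen genes COL1A1 and COL3A1 of the mesenchymal list rose in the same libraries, by 2.53 and 3.59 on the log2 scale (adjusted p = 3.47e-05 and 0.000538). COL1A2, the other collagen gene of that list, had a log2 fold change of 0.07 (SE 0.35, adjusted p = 0.903) with overlapping groups. The part of such cells in the rise of ZNF469 was not tested.

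ZNF267, a KRAB protein with 14 fingers, was at 20.2 and 22.7 CPM in WT NPC and at 63.5 and 84.0 CPM in KO (log2 fold change 1.78, SE 0.17, adjusted p = 0.000543). ZNF280A was at 1.37 and 1.79 CPM in WT and at 4.84 and 4.59 CPM in KO (log2 fold change 1.57, SE 0.33, adjusted p = 0.013). ZNF883 was at 12.6 and 8.50 CPM in WT and at 21.9 and 24.1 CPM in KO (log2 fold change 1.12, SE 0.23, adjusted p = 0.0114), the only member called in both cell types. ZNF860 was without a read in WT NPC and had 11 (S1) and 6 (S2) counts in KO, which makes it at least 2.75-fold higher against the floor (adjusted p = 0.0481). ZFP57, a guardian of imprints, was at 0.0473 and 0.154 CPM in WT and at 0.247 and 0.405 CPM in KO, at least 2.21-fold higher against the floor without passing (adjusted p = 0.301). Of the 8 higher members, 7 had no neighbour, which is 6.03% of members without one, where 8.45% of all genes were called higher.

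**Figure D3:**
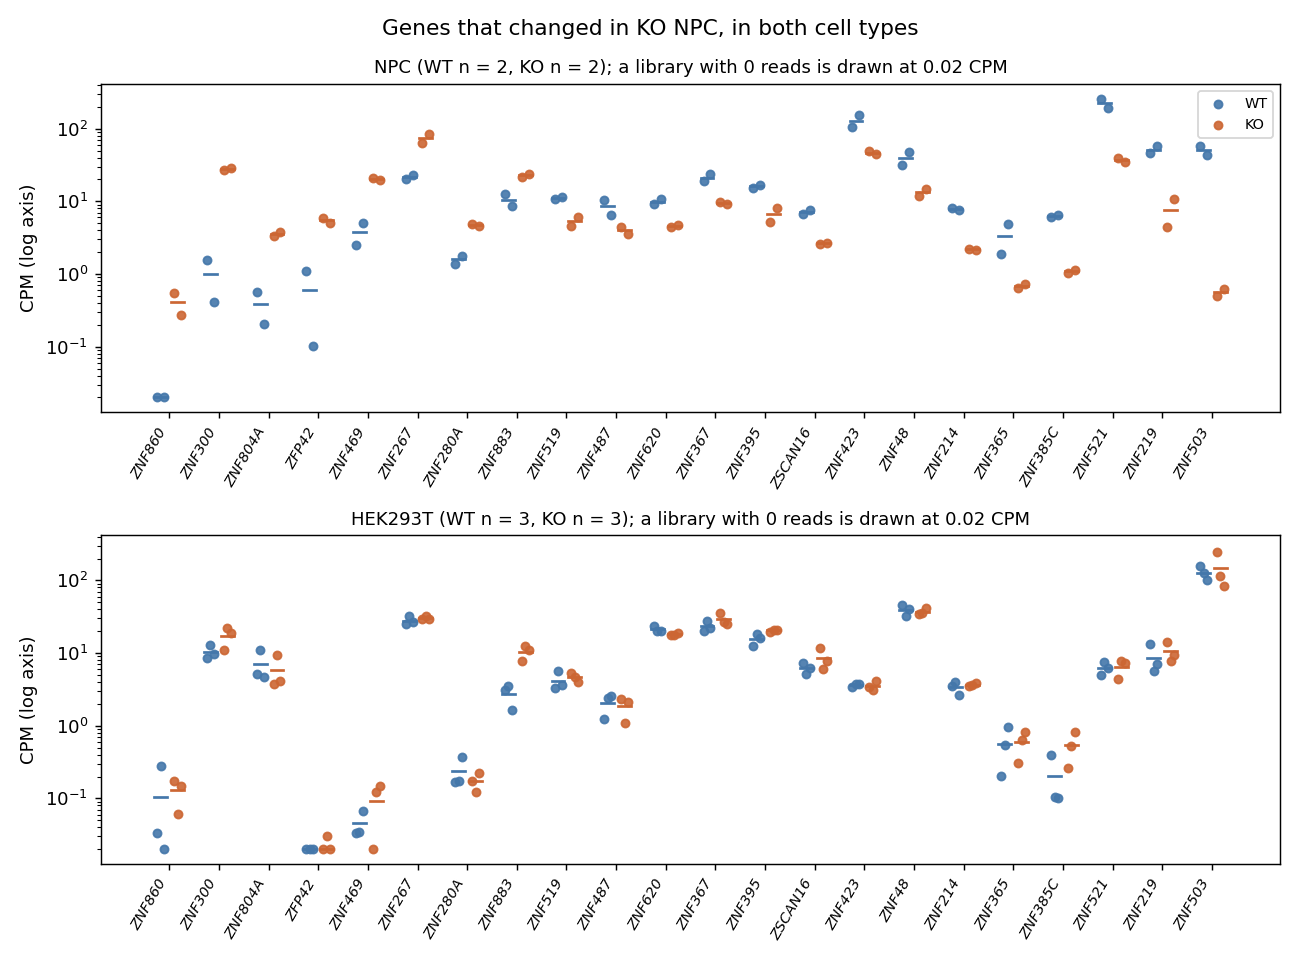
Normalized counts (CPM, log axis) in each library of the 22 members that passed the test in NPC, in NPC (above, 2 WT and 2 KO libraries) and in HEK293T (below, 3 and 3), with horizontal bars for group means and genes ordered by the change in NPC. WT is blue and KO is orange, and a library without reads is drawn at 0.02 CPM. The groups are apart for all 22 genes in NPC, and ZNF883 is the only one of them whose HEK293T groups are apart with a call there.

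With a single library left out, 11 of the 22 NPC calls passed every time and under every other setting: ZNF503, ZNF521, ZNF219, ZNF385C, ZNF423, ZNF214, ZNF48, ZNF300, ZNF804A, ZNF469 and ZNF267. The log2 fold changes of 4 called members besides ZFP42 moved by over 1.5 times in size of fold when 1 library was left out. ZNF300 had 6.06 without S3 and 4.13 without S5, ZNF804A 4.09 without S3, ZNF365 -1.47 without S5 and ZNF219 -3.56 without S2. ZNF860 passed in none of the 4 fits, and ZNF883, ZNF365, ZNF487 and ZNF620 in 1 of 4. ZNF860 also lost its call with DESeq2 and with library size alone, ZNF365 with voom, and ZNF487 with voom and in the joint fit of all 10 libraries. In the fits without a KO library, 7 members were lower without S1 and 8 without S2, against 14 with all libraries. Over all genes, the calls fell from 1738 higher and 1721 lower to 1141 and 943 without S1 and to 1263 and 1097 without S2, so the loss was not particular to the members.

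By neighbours, 1 of 101 members was higher (0.99%) and 5 lower (4.95%) in NPC. Without a neighbour, 7 of 116 were higher (6.03%) and 9 lower (7.76%). Each share was under that of all genes, 8.45% higher and 8.36% lower, and the medians were close (-0.19 and -0.22). By level in WT NPC, the medians with and without a neighbour were -0.14 and -0.16 at 1 to 10 CPM, and both were -0.25 at 10 CPM or more. Both KO NPC libraries lay above both WT libraries for 19.8% of members with a neighbour and 19.8% without, against 33.3% of all genes. Among members at 1 to 10 CPM in WT HEK293T, this held for 11 of 43 with a neighbour (25.6%) and 2 of 27 without (7.41%). Both KO libraries lay below for 46.5% and 55.6% of them, against 33.8% of all genes, and the medians were -0.23 and -0.27. At 10 CPM or more in WT HEK293T, the shares above were in the other order, 15.6% with a neighbour and 20.8% without. The medians in NPC were thus close at each of these levels, and no test of the split was made. The SCAN-named members had a median of -0.36, with 15 of 16 below 0, 0 higher and 1 lower, where the other members had a median of -0.19 and 151 of all 217 were below 0. Of the 16, 9 lie in 1 locus on chromosome 6. That call was ZSCAN16 (chr6:28075467-28097860), at 6.67 and 7.58 CPM in WT and at 2.57 and 2.70 CPM in KO (SE 0.28, adjusted p = 0.00915), which overlaps an antisense gene. ZKSCAN8 (log2 fold change -0.47, adjusted p = 0.0309) and ZSCAN31 (-0.99, adjusted p = 0.045) passed in p but not in fold, and ZKSCAN4 (-0.70, adjusted p = 0.0937) and ZSCAN23 (-1.81, adjusted p = 0.0801) passed neither. All 5 genes lie in the 10-gene locus of chromosome 6 (chr6:28048346-28411279), in which 0 of 10 members were above 0 in NPC and the median was -0.60, against 0.08 in HEK293T. The median over all 34 members with a SCAN box was -0.31, and 28 of them were below 0. The 9-gene locus on chromosome 16 was also below 0 throughout in NPC, with a median of -0.69.

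**Figure D4:**
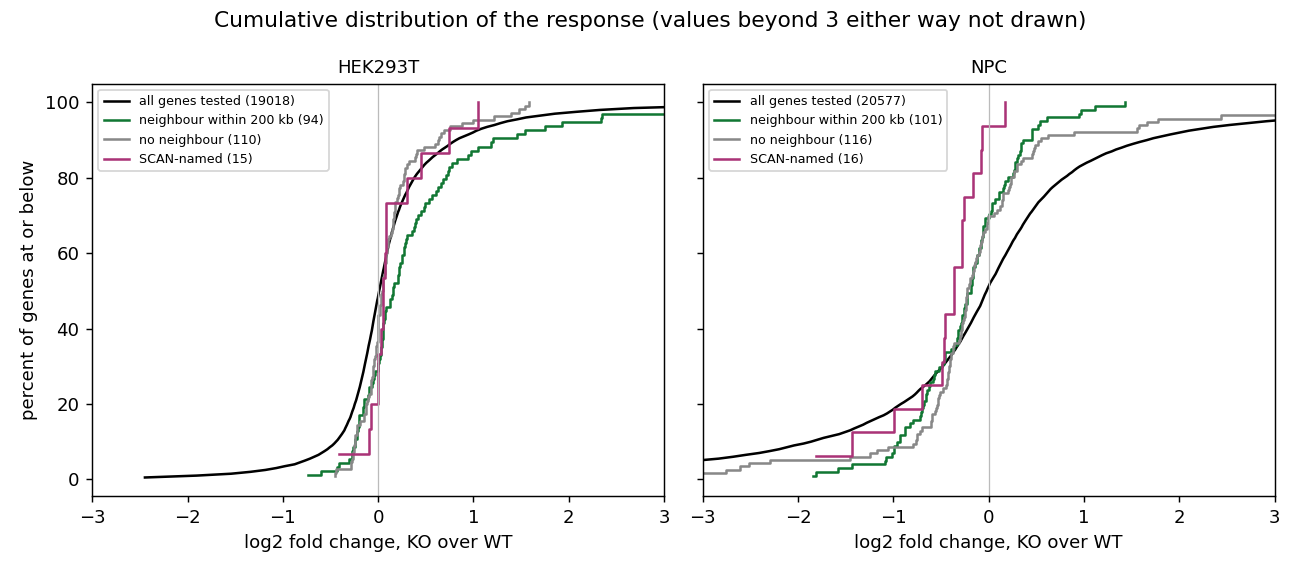
Cumulative share (percent) of genes against log2 fold change (KO over WT) for all genes tested, members with a neighbour within 200 kb, members without, and SCAN-named members, in HEK293T (left) and NPC (right), with the number of genes in the legend. In HEK293T the curve with a neighbour runs to the right of the others above 0, with a median of 0.16, and in NPC the member curves cross 0 higher than all genes, the SCAN-named curve most of all. Values beyond 3 in either direction are not drawn.

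The proteins that the KRAB box calls on were read beside the members. Of 25 genes fixed for this list (TRIM28, SETDB1, ATF7IP, HP1 proteins, NuRD subunits, DNA methyltransferases and H3K9 methyltransferases among them), 24 were tested. In HEK293T 0 were higher and 0 lower, with 1 at an unadjusted p below 0.05, and TRIM28 had a log2 fold change of -0.90 (SE 0.31, adjusted p = 0.537). In NPC 0 were higher and 2 lower, TRIM24 (log2 fold change -1.22, SE 0.24, adjusted p = 0.00904) and the DNA methyltransferase DNMT3B (-1.91, SE 0.22, adjusted p = 0.00106), a share near the 8.36% of all genes called lower. At an unadjusted p below 0.05 there were 17 of the 24, 14 of them with a log2 fold change below 0, where 8302 of all 20577 genes were below that p, and the list's median was -0.38. TRIM28 and SETDB1 both had -0.61 there (adjusted p = 0.0062 and 0.00877), below the fold threshold.

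The last comparison asks whether the effect of the KO differs between the cell types, tested in 1 model of all 10 libraries with 19255 genes and a cell type by genotype term. All 217 members entered this fit, including 5 without a count in HEK293T, whose fitted difference is not informative. The difference (NPC minus HEK293T) was called higher for 4 members and lower for 21 (1.84% and 9.68%), where 6.01% of all genes were higher and 6.22% lower. Its median was -0.30 over members and -0.03 over all genes. Of the 7 genes higher in KO HEK293T, the increase was larger there than in NPC for ZNF501 (difference -2.49, SE 0.49, adjusted p = 0.00564), ZNF502 (-1.88, SE 0.35, adjusted p = 0.00389), ZFP90 (-1.41, SE 0.25, adjusted p = 0.00303) and ZNF232 (-1.18, SE 0.27, adjusted p = 0.0109). In NPC, ZNF501 was at 10.3 and 6.81 CPM in WT, above its WT level in HEK293T, and at 11.4 and 14.7 CPM in KO (log2 fold change 0.61, SE 0.27, adjusted p = 0.141). ZNF883 (-0.79, SE 0.46, adjusted p = 0.281), ZNF239 (-0.76, SE 0.36, adjusted p = 0.184) and ZNF354A (-0.64, SE 0.35, adjusted p = 0.249) did not pass, and all 3 had both KO NPC libraries above both WT libraries. ZNF354C, which had 0 counts in WT HEK293T, was at 11.6 and 9.16 CPM in WT NPC and at 8.64 and 11.5 CPM in KO.

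**Figure D5:**
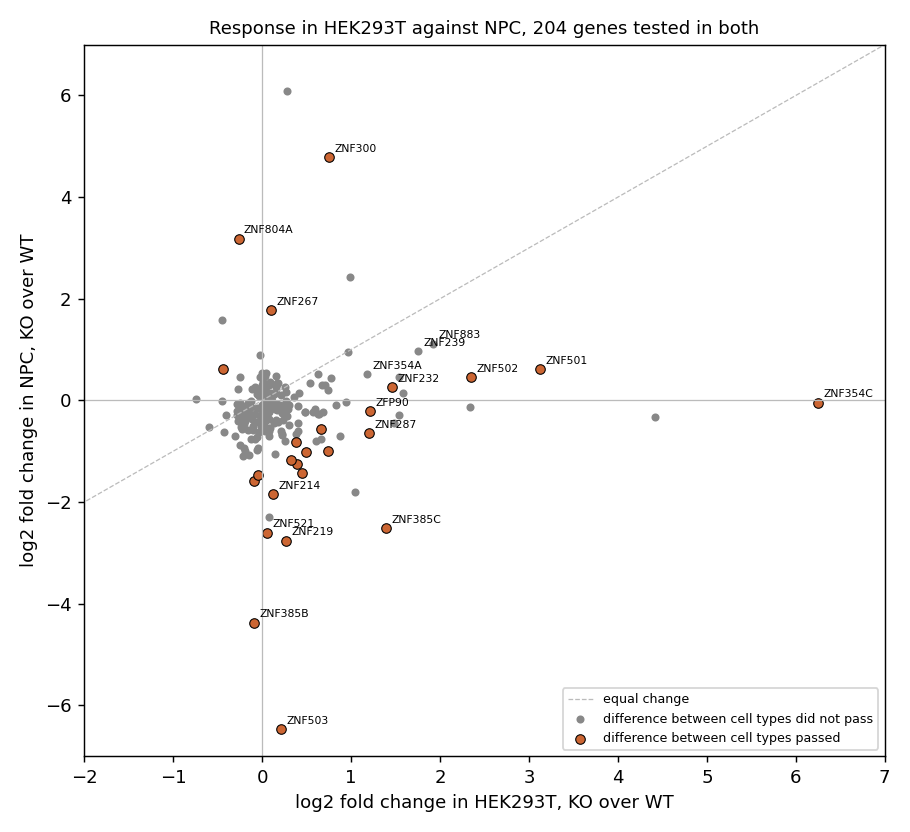
Log2 fold change (KO over WT) in NPC against HEK293T for the 204 members tested in both. Orange points are members whose difference between the cell types passed the interaction test, grey points did not, and the dashed line marks equal change. Most orange points lie below the line, as 21 of the 25 differences are lower in NPC.

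Of the members that changed in NPC, the difference passed for ZNF503, ZNF385C, ZNF219, ZNF521, ZNF214, ZSCAN16, ZNF395, ZNF367, ZNF48, ZNF423, ZNF300, ZNF804A and ZNF267, and no member was called in opposite directions in the 2 cell types. Over the 204 members tested in both, 44 were above 0 in both, 88 above 0 in HEK293T and below in NPC, 16 the reverse and 56 below 0 in both. Spearman's rho between both sets of changes was 0.11 across genes, which are not independent replicates, and the values come from separate libraries.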

How the data were processed

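Per the labels and the study's methods, the authors used HISAT2 for alignment to hg19 and featureCounts to assign the uniquely mapped reads to genes. The deposited values are raw counts per gene, in 1 table for each cell type. Tool versions, the gene annotation and the use of strand in counting are not given in the sources used here, and 91 members overlap another listed gene, so reads of such pairs may not be told apart.

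Genes whose total count was at least the number of libraries were tested with edgeR 4.0.16 (quasi-likelihood test, TMM) in R 4.3.3, within each cell type and, for the difference of the KO effect, over all 10 libraries with an interaction term. P-values were adjusted by Benjamini-Hochberg over all genes tested, 19018 in HEK293T, 20577 in NPC and 19255 for the difference, with calls made where adjusted p was below 0.05 and the fold above 2. CPM values use the TMM factors. The total counts per library given in the report set the precision, and the floor of 3 counts per library covers counting error only. DESeq2 1.42.0, voom in limma 3.58.1, other scalings, filters and thresholds, and the removal of each library were tried as alternatives. The test was also run on simulated data with 200 genes changed 4-fold, of which it recovered 100% in HEK293T, 99% in NPC and 93% for the difference. The changed genes were drawn from well-counted genes, and the spread was fixed for all genes and not taken from the replicates. These rates thus check that the test runs as meant and do not give its power for the members or for smaller changes. Replicates differed beyond sampling noise in every pair (chi-square per degree of freedom 10.5 to 81.9). The largest values were those of KO HEK293T library S18 with S19 (81.9) and with S20 (72.0), where S19 with S20 had 26.3.

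Gene positions, types and coding sequences came from GENCODE release 44 on hg19, which held 23273 of 24050 listed identifiers. KRAB and SCAN boxes were found in translated coding sequences with HMMER 3.4 (MAFFT 7.526 for the alignments), in place of the RefSeq proteins that were planned, and fingers by pattern. Named genes were ZNF274, members called in any comparison, the other members of their loci (by range), SCAN-named members with an unadjusted p below 0.05, the members of highest CPM, members at the floor in 1 group only, and called genes of the marker and corepressor lists. Members and lists were chosen with earlier results of these data known. No counts over transposable elements were analysed here.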

Additional observations from a re-analysis of the deposited data

Results flagged for a closer look

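The effect of the KO differed between NPC and HEK293T for 25 members, by edgeR's test of the interaction term (adjusted p below 0.05 and fold above 2). Values are the log2 fold change in NPC minus that in HEK293T. Among members that were lower in KO NPC, the difference was negative for ZNF503 (-6.66), ZNF385C (-3.89), ZNF219 (-3.01), ZNF521 (-2.65), ZNF214 (-1.94), ZSCAN16 (-1.87), ZNF395 (-1.62), ZNF367 (-1.48), ZNF48 (-1.47) and ZNF423 (-1.39). Among members that were higher in KO HEK293T, it was negative for ZNF501 (-2.49), ZNF502 (-1.88), ZFP90 (-1.41) and ZNF232 (-1.18). Among members called in neither cell type, it was negative for ZNF354C (-6.12), ZNF385B (-4.27), ZNF287 (-1.84), ZSCAN31 (-1.71), ZNF396 (-1.49), ZFP37 (-1.21) and ZNF165 (-1.19). WT HEK293T had 0 counts of ZNF354C and KO NPC libraries were at or under the floor for ZNF385B, so the fitted values of these genes depend on the prior count. The difference was positive for ZNF300 (4.06), ZNF804A (3.47) and ZNF267 (1.699), which were higher in KO NPC, and for ZNF593 (1.08), a nucleolar protein called in neither cell type. With 1 library left out, the difference was 5.34 (without S3) and 3.39 (without S5) for ZNF300, 4.39 for ZNF804A (without S3), -3.81 for ZNF219 (without S2) and -4.84 for ZNF385C (without S15), and it ranged from -8.25 to -1.59 for ZNF385B. Of these 25 differences, 15 passed under every setting tried and with each library left out in turn. The calls of ZFP37, ZNF165 and ZNF396 were each lost when any of S15, S16, S17, S19 or S20 was left out. With voom, the calls of ZNF165, ZNF385B and ZNF593 were lost. The part of the shifted marker genes of NPC in the 25 differences was not tested.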

How the results depend on the processing

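None of the calls (7 in HEK293T, 22 in NPC and 25 differences) changed sign under the alternatives that were run. Single members without a call and locus medians were not followed under each alternative, and the chromosome 16 median in HEK293T, 0.00, was -0.01 when members under the floor took their bound. At an adjusted p below 0.01, 4 members were higher in HEK293T (7 at 0.05), 4 were higher and 9 lower in NPC (8 and 14), and 2 differences were higher (4). Without a fold threshold, 32 members were lower in NPC (14 with it). No share of all genes is given for that setting, so the rise is not read as particular to the members. With library size alone as the scaling, the median log2 fold change of members was 0.156 in HEK293T (0.073 with TMM), -0.333 in NPC (-0.224) and -0.522 for the difference (-0.303), and 33 differences were lower (21). That scaling moved the median of all genes to 0.098, -0.130 and -0.238. It also moved the differences called over all genes to 1702 lower (1197 with TMM) and 843 higher (1157). With edgeR's filterByExpr the median difference was -0.361.

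With each library left out in turn, 4 to 8 members were higher in HEK293T and their median was 0.067 to 0.105. In NPC 4 to 11 were higher and 7 to 22 lower, with a median of -0.276 to -0.190. NPC counts were 4 higher and 7 lower without S1, 4 higher and 8 lower without S2, and 22 lower without S3. For the difference, 3 to 5 members were higher and 13 to 22 lower, with 13 lower without S1, and the median was -0.380 to -0.281. Where an NPC group was left with 1 library, that library was assumed to vary like the others. The cause of these shifts was not tested, beyond the fewer samples in each fit. No paired analysis was made, because the labels do not tell whether any WT and KO libraries share a parental line. A pairing by line in NPC, if there was one, was thus not used. The depth sets a floor of 0.135 to 0.154 CPM in NPC, under which both WT libraries of ZNF860 lay.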
